A study of Mus musculus with 12 samples.

Results

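The genes described here carry calcium signals in the cell: DREAM and its relatives, the channels and pumps that move calcium, and the calmodulin, calcineurin, NFAT and CREB proteins that read it. They were taken as a list of 37 gene symbols, older synonyms allowed, and every probe set annotated to one of them alone was used. The list had 110 probe sets for 34 of the 37 genes, out of 45037 probe sets on the array without its controls. The expression of Itpr1, Calm2 and Calm3 was not analysed here, and 1 further probe set shared by Ppp3r1 and Wdr92 was left out. RNA came from B cells of the mouse spleen, isolated by depleting cells that carry CD43, with a stated purity above 98%. The 4 groups were EFLmDREAM transgenic and wild type cells after 2 days in culture with lipopolysaccharide (LPS, 20 µg/ml) and interleukin 4 (IL-4, 10 ng/ml), and transgenic and wild type cells left unstimulated (day 0), with 3 independent biological replicates and 1 array for each. The promoter that drives the transgene, the number of transgenic lines, and the animals' age and strain are not given in the sources used here, nor is whether the Kcnip3 probe sets read the transgene's transcript. Values are log2 probe set summaries. Genotype differences are transgenic minus wild type in the deposited values, with the SE from limma, and a change was called at an adjusted p (Benjamini-Hochberg over all 45037 probe sets) under 0.05. Where a gene has several probe sets, the brightest stands for it unless another is named.

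DREAM, the product of Kcnip3, is a neuronal calcium sensor of the KChIP family. Without calcium it binds a short DNA element, the downstream regulatory element, and represses the gene. With calcium bound it lets go of the DNA, and together with its relatives it also modulates potassium channels at the membrane. In B cells the antigen receptor makes inositol trisphosphate, which opens IP3 receptors in the endoplasmic reticulum. STIM proteins sense that the store has emptied and open ORAI channels in the plasma membrane. SERCA pumps refill the store, and plasma membrane pumps and sodium-calcium exchangers export calcium. Calmodulin carries the signal to its kinases and to the phosphatase calcineurin, which frees NFAT factors to enter the nucleus.

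Promoter windows of 300 bases were available for 29 of the member genes, in 39 windows, from RefSeq on GRCm38.p6. Among these genes is Calm3, whose expression was not analysed. The core of the DREAM element is the 4-letter motif GTCA, searched on both strands. It lay in 28 of the 39 member windows (71.8%) and in 85.2% of all 32851 windows of that length. The 5-letter core GGAAA, to which NFAT factors bind, was also searched on both strands and lay in 27 member windows (69.2%) and in 61.3% of all windows. Windows are shown for Kcnip3, the gene of the transgene, and for Orai2 and Slc8a1, the 2 genes called between genotypes at their brightest probe set. All 3 lie on the minus strand and are written 5′ to 3′, with capitals on GTCA or its reverse TGAC. Kcnip3 has several annotated starts, and the window at chr2:127521343-127521642 has the most matches (2). The Orai2 window at chr5:136170607-136170906 holds 4 matches, and the Slc8a1 window at chr17:81738338-81738637 holds 0.
Kcnip3: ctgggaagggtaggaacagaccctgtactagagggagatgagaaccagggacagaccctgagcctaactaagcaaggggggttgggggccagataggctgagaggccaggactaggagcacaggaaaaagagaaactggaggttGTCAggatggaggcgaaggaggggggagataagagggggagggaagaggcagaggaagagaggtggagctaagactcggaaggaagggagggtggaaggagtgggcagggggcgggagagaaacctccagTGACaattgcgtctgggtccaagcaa
Orai2: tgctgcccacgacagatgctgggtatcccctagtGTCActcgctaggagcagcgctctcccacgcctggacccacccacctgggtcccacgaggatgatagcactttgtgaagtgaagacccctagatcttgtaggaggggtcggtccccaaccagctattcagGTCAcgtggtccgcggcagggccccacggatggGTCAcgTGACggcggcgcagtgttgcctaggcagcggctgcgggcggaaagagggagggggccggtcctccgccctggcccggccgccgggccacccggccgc
Slc8a1: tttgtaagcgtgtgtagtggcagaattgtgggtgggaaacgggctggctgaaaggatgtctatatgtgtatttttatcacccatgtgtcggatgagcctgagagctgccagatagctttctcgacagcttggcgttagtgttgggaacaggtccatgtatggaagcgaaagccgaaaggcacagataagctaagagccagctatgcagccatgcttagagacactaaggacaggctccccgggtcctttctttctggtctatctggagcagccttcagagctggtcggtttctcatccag

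B cell identity was checked first. The 7 B cell markers with a probe set of their own averaged 9.97 to 10.1 per array in transgenic and 9.79 to 9.94 in wild type stimulated cells, and 11.6 to 11.7 in transgenic and 11.6 to 11.8 in wild type unstimulated cells. Markers of other cells moved with genotype. In unstimulated cells 14 of 16 monocyte and macrophage markers were called higher in transgenic cells, with array means of 8.54 to 8.81 against 7.23 to 7.49 in wild type. Of 11 granulocyte markers 10 were higher, with array means of 8.86 to 9.30 in transgenic and 6.09 to 6.33 in wild type cells, as were 4 of 7 erythroid markers (1 lower), 3 of 14 T and NK cell markers and 1 of 6 platelet markers. After stimulation 5 of the 16 monocyte and macrophage markers and 3 of the 11 granulocyte markers were higher in transgenic cells, as was 1 of 6 platelet markers (Pf4, by 1.37). Of the 7 B cell markers, 1 was higher after stimulation (Cr2, by 0.53), and in unstimulated cells 1 was higher (Cr2, by 0.29) and 1 lower (Blk, a difference of −0.27). No marker of any list read 0, and the lowest single value was 3.09. The part of these cells in the genotype differences below was not tested. Array medians ran between 5.36 and 5.41 at day 2 and between 5.97 and 6.05 at day 0. One array stood apart in RNA quality: wild type unstimulated replicate 1 read actin dimmer at the transcript's 5′ end than at its 3′ end by a log2 difference of −2.22, while the other unstimulated arrays had −0.67 to −0.54. Among stimulated arrays wild type replicate 1 had the lowest such value, −1.36, and the others had −0.98 to −0.43. The brightest probe set lay above the median of every array for 27 of the 34 genes and below it for 4.

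In unstimulated cells few of the calcium signalling genes differed between genotypes. At the brightest probe set 1 gene was higher in transgenic cells (Slc8a1) and 1 lower (Orai2), 2 of 34 against 10.4% of all 18193 genes (5.45% higher and 4.9% lower). Over all 110 probe sets 1 was higher and 9 lower, against 9.45% of all probe sets called (4.47% higher and 4.98% lower), and the 10 belong to 8 genes. The median difference of the 34 genes was −0.070, against 0.013 over all genes. The arrays of both genotypes were fully separate for 11 of the 34 genes, where 25.4% of all genes had separate arrays. Over the 34 genes the differences ran from −0.46 to 0.47. In bulk RNA, fewer cells of a type and less RNA per cell cannot be told apart. The plot of genotype differences sets both states side by side.

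**Figure D1:**
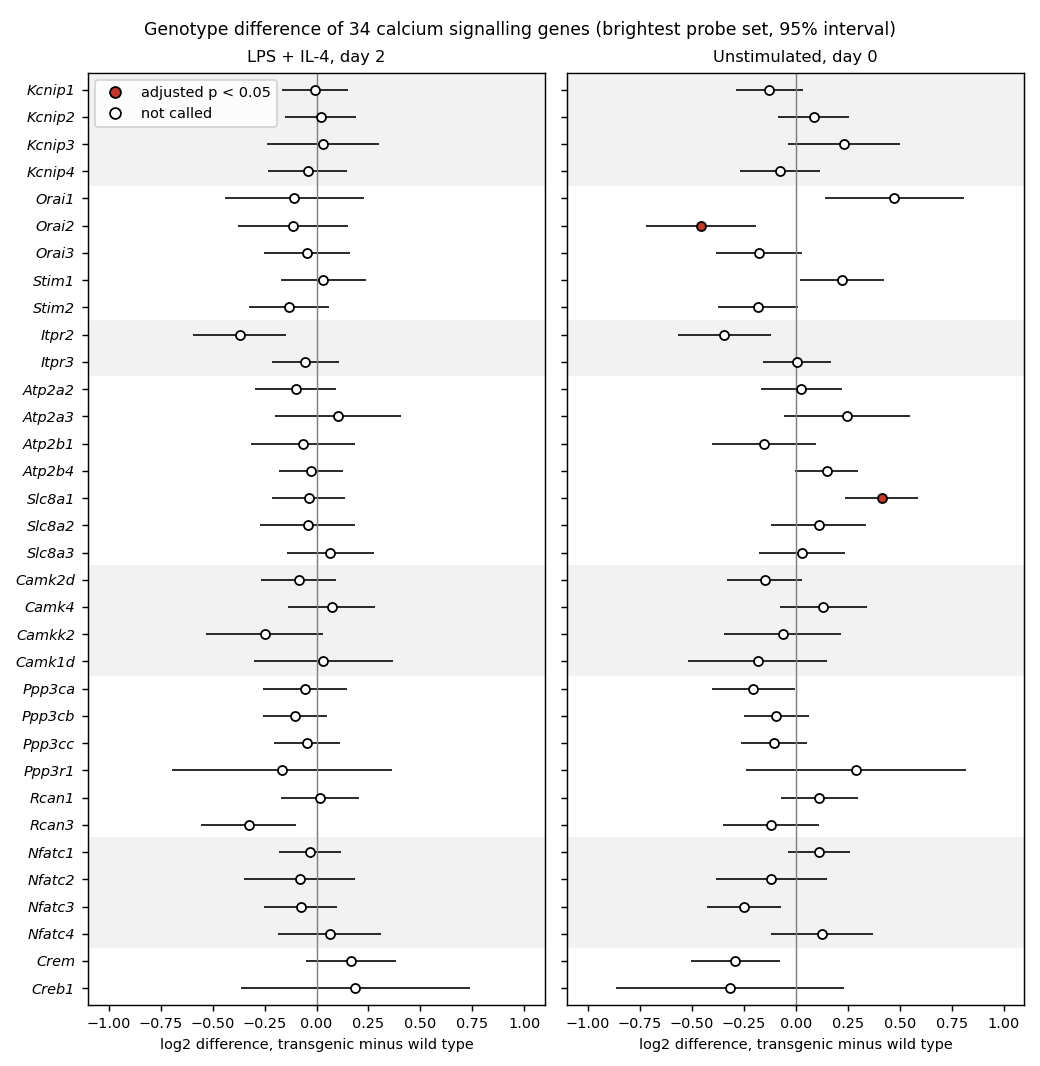
Log2 difference, transgenic minus wild type, for the brightest probe set of each of 34 genes after LPS and IL-4 (left) and in unstimulated cells (right). Points are limma estimates from 3 arrays per group, lines are 95% intervals, grey bands separate the roles, and filled points have an adjusted p under 0.05: Slc8a1 and Orai2 on the right, and no gene on the left.

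The KChIP family comprises DREAM itself and the potassium channel subunits Kcnip1, Kcnip2 and Kcnip4. Kcnip3 read 7.0, 7.07 and 7.28 in transgenic unstimulated arrays and 6.75, 6.71 and 7.19 in wild type ones at its brighter probe set (1418544_at). The arrays overlap because wild type replicate 3 lies above transgenic replicates 1 and 2. The 95% interval of the difference, −0.036 to 0.50, includes 0 (adjusted p = 0.279). At the other Kcnip3 probe set (1449129_a_at) the transgenic arrays read 5.47, 5.57 and 5.65 and the wild type arrays 5.24, 5.47 and 5.68. The values of both groups lie among each other, and replicate 3 is the highest of each group at both probe sets. Kcnip2 gave different answers by probe set. Its dimmest one (1425870_a_at) read 4.62, 4.77 and 4.56 in transgenic and 5.08, 5.00 and 4.88 in wild type arrays, a difference of −0.34 ± 0.082 (adjusted p = 0.0216). All transgenic arrays lie below all wild type arrays there, whereas the brightest Kcnip2 probe set had a difference of 0.087 ± 0.079 (adjusted p = 0.557). Without wild type unstimulated replicate 1 the difference at the dimmest one was −0.29 with adjusted p = 0.0716, and leaving out wild type replicate 2 or transgenic replicate 1 or 3 also ended the call (adjusted p = 0.0593, 0.0739 and 0.0994). Kcnip1 and Kcnip4 had differences of −0.13 and −0.077 and were not called.

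Store-operated entry runs through ORAI channels, which form the pore, and STIM sensors. Orai2, a channel subunit, read 7.29, 7.76 and 7.68 in transgenic unstimulated arrays and 8.11, 8.09 and 7.90 in wild type ones. Every transgenic array lay below every wild type array, and the difference was −0.46 ± 0.12 (1.37-fold lower, adjusted p = 0.0333). Without the wild type array of poor 5′ signal it was −0.42 with adjusted p = 0.0948, and the call was also lost on leaving out wild type replicate 2, with adjusted p = 0.0939, or either of transgenic replicates 1 and 3, with adjusted p = 0.117 and 0.0607. Orai1, the main pore subunit of lymphocytes, read 8.19, 8.10 and 8.32 in transgenic and 7.37, 7.92 and 7.90 in wild type arrays. The groups do not overlap, wild type replicate 1 is the lowest array, and the difference of 0.47 ± 0.15 did not pass (adjusted p = 0.075). Orai3 and the sensors Stim1 and Stim2 had differences of −0.18 to 0.22 and were not called.

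Slc8a1, a sodium-calcium exchanger of the plasma membrane, was the only gene called higher at its brightest probe set. It read 5.17, 5.17 and 5.05 in transgenic unstimulated arrays and 4.68, 4.62 and 4.85 in wild type ones. The groups do not overlap, and the difference was 0.41 ± 0.081 (1.33-fold higher, adjusted p = 0.00706). Its values lie below the median of every array, and without wild type replicate 1 the difference was 0.40 (adjusted p = 0.0206). Of the 4 Slc8a1 probe sets only this 1 was called, and the differences ran from −0.010 to 0.41. The second-brightest (1425817_a_at) read 4.79, 4.71 and 4.83 in transgenic and 4.56, 4.78 and 4.88 in wild type arrays, which overlap. After stimulation the arrays of both genotypes overlap at the brightest probe set, with 4.55, 4.54 and 4.59 in transgenic and 4.68, 4.61 and 4.5 in wild type cells. The monocyte and granulocyte markers above are also higher in unstimulated transgenic cells, and their part in the Slc8a1 difference was not tested. Of the other exchangers and pumps, 1 further probe set was called. Atp2a2, the SERCA pump present in most cells, read 8.47, 8.42 and 8.27 in transgenic and 9.07, 8.74 and 8.68 in wild type arrays at its second-brightest probe set (1416551_at). Transgenic arrays lie below wild type arrays there, with a difference of −0.44 ± 0.12 (adjusted p = 0.0361), which without wild type replicate 1 was −0.32 (adjusted p = 0.123). Of the other arrays left out, only the fit without wild type replicate 3 kept that call (adjusted p = 0.0548 to 0.144 in the rest). At the brightest Atp2a2 probe set the difference was 0.027 ± 0.091 (adjusted p = 0.897). The lymphoid SERCA pump Atp2a3, the plasma membrane pumps Atp2b1 and Atp2b4, and the exchangers Slc8a2 and Slc8a3 had differences of −0.15 to 0.25 and were not called.

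**Figure D2:**
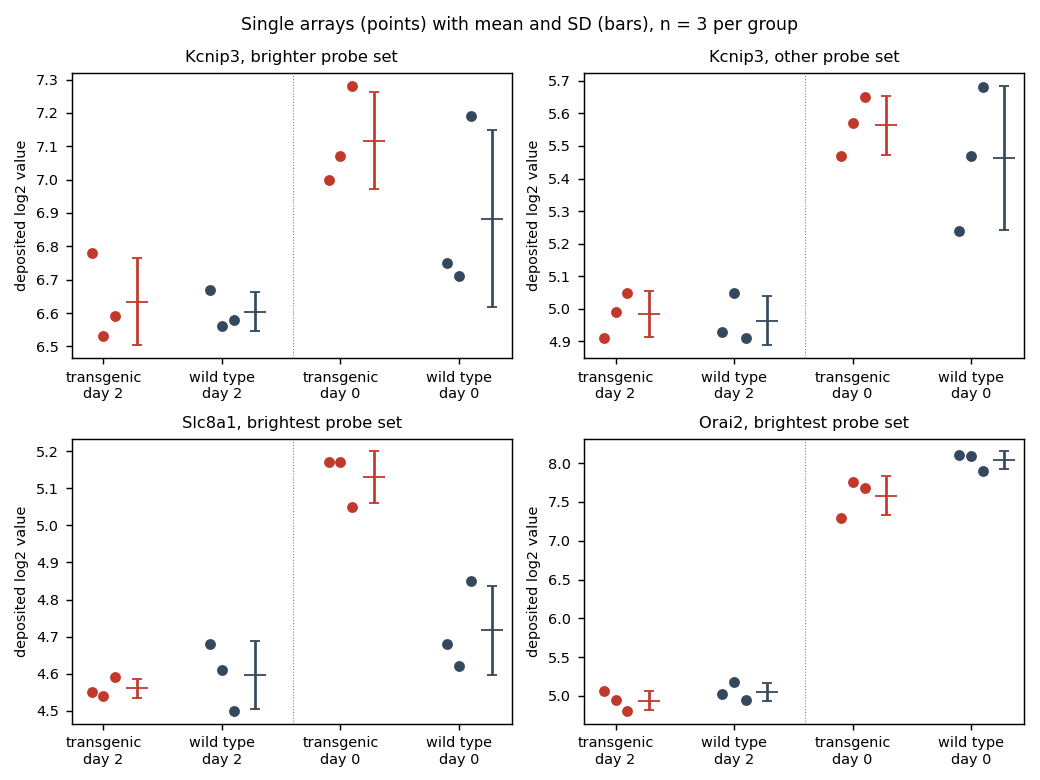
Deposited log2 values of single arrays (points) with mean and SD (bars, n = 3 per group) for both Kcnip3 probe sets and for the brightest probe sets of Slc8a1 and Orai2, in transgenic and wild type cells at day 2 and day 0. The day 0 arrays overlap for Kcnip3, lie higher in transgenic cells for Slc8a1 (5.05 to 5.17 against 4.62 to 4.85) and lower for Orai2 (7.29 to 7.76 against 7.90 to 8.11); each panel has its own scale, which does not start at 0.

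Camk2d, a subunit of the calmodulin-dependent kinase CaMKII, had the largest genotype difference of the list, and it depended on the probe set. Its dimmest probe set (1444031_at) read 3.64, 3.59 and 3.88 in transgenic unstimulated arrays and 5.25, 5.51 and 4.96 in wild type ones. The groups do not overlap, with a difference of −1.54 ± 0.14 (2.90-fold lower, adjusted p = 2.88e-05). Probe set 1456844_at read 6.12, 6.34 and 5.97 in transgenic and 7.13, 6.85 and 6.64 in wild type arrays, a difference of −0.73 ± 0.13 (adjusted p = 0.00345). Probe set 1422659_at read 6.80, 7.05 and 6.61 in transgenic and 7.91, 7.56 and 7.12 in wild type arrays, a difference of −0.71 ± 0.16 (adjusted p = 0.0168). In both, every transgenic array lies below every wild type array. The 4 remaining Camk2d probe sets had differences of −0.58 to −0.15 and were not called, among them the brightest (−0.15 ± 0.083, adjusted p = 0.297). All 7 estimates were below 0, and the 3 calls also held without wild type replicate 1 (adjusted p = 0.00011, 0.00932 and 0.045). The weakest of them, at 1422659_at, was lost without wild type replicate 2 or transgenic replicate 1 or 3 (adjusted p = 0.0506, 0.0558 and 0.0828). Which part of the transcript each probe set reads was not examined here. The other kinases, Camk1d, Camk4 and the upstream kinase Camkk2, had differences of −0.18 to 0.13 and were not called.

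**Figure D3:**
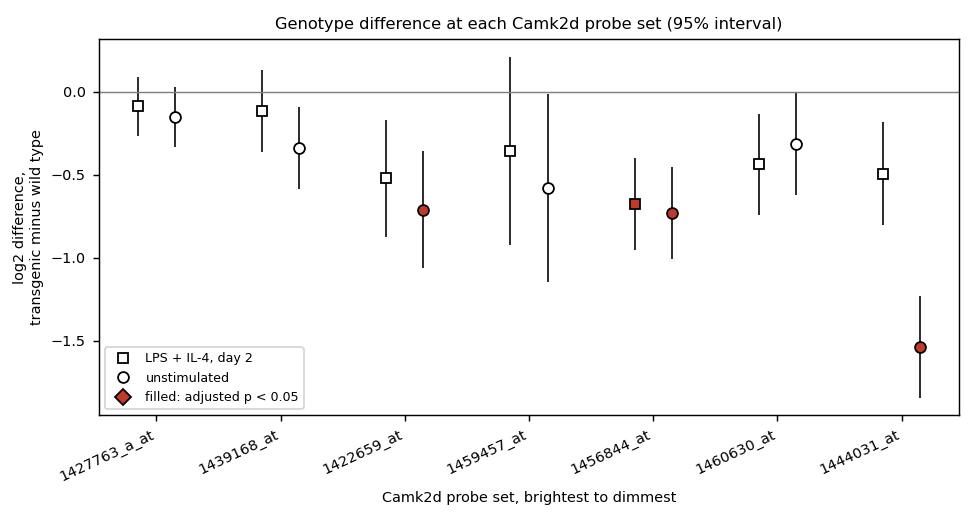
Log2 difference, transgenic minus wild type, at each of the 7 Camk2d probe sets, from the brightest to the dimmest, after LPS and IL-4 (squares) and in unstimulated cells (circles), with 95% intervals. All 14 estimates lie below 0 and run from −1.54 to −0.087; filled symbols have an adjusted p under 0.05.

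IP3 receptors release calcium from the endoplasmic reticulum. Itpr2 read 6.98, 7.49 and 7.27 in transgenic unstimulated arrays and 7.70, 7.61 and 7.71 in wild type ones at probe set 1424833_at. Transgenic arrays lie below wild type arrays, with a difference of −0.43 ± 0.11 (adjusted p = 0.027), and leaving out wild type replicate 1 ended the call (−0.41, adjusted p = 0.0663), as did leaving out transgenic replicate 1 or 3 (adjusted p = 0.0883 and 0.0762). At the brightest Itpr2 probe set the difference was −0.34 ± 0.10 (adjusted p = 0.0558). Itpr3 differed by 0.0067 ± 0.075 (adjusted p = 0.971), with a 95% interval of −0.16 to 0.17.

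The catalytic subunit Ppp3ca of calcineurin read 9.30, 9.41 and 9.15 in transgenic unstimulated arrays and 9.92, 9.90 and 9.78 in wild type ones at its dimmest probe set (1438478_a_at). The groups do not overlap, and the difference was −0.58 ± 0.099 (1.49-fold lower, adjusted p = 0.00289), or −0.55 (adjusted p = 0.00939) without wild type replicate 1. The brightest Ppp3ca probe set had a difference of −0.20 ± 0.093 (adjusted p = 0.203). The other calcineurin subunits Ppp3cb, Ppp3cc and Ppp3r1 and the calcineurin regulators Rcan1 and Rcan3 had differences of −0.12 to 0.29 and were not called. The 0.29 is that of Ppp3r1, for which wild type replicate 1 read 8.34 and the other wild type arrays 9.48 and 9.44. The 17 probe sets of the NFAT factors ran from −0.41 to 0.62, with a smallest adjusted p of 0.0754. The 0.62 is that of Nfatc3 at 1452497_a_at, where wild type replicate 1 read 7.67 and the other wild type arrays 8.69 and 8.65. Creb1, the transcription factor that kinases of this pathway phosphorylate, read 8.99, 8.94 and 8.88 in transgenic and 9.64, 9.39 and 9.17 in wild type arrays at its second-brightest probe set (1428755_at). The difference was −0.46 ± 0.11 (adjusted p = 0.0237), with no overlap, and −0.34 (adjusted p = 0.0753) without wild type replicate 1. That call held only when wild type replicate 3 was the array left out (adjusted p = 0.0543 to 0.0931 in the others). At the brightest Creb1 probe set it was −0.32 ± 0.25 (adjusted p = 0.497). Crem, a relative of Creb1 with repressor isoforms, differed by −0.29 ± 0.10 and did not pass (adjusted p = 0.0903).

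After 2 days with LPS and IL-4, 0 of the 34 genes were called between genotypes at their brightest probe set by limma, against 2.34% of all genes, and 2 had an unadjusted p under 0.05, against 13.2% of all genes. Of the 110 probe sets 2 were lower and 0 higher, against 1.86% of all probe sets called (0.868% higher and 0.995% lower). Itpr2 at probe set 1427287_s_at read 6.05, 5.80 and 5.65 in transgenic and 6.79, 6.39 and 6.57 in wild type stimulated arrays. The groups do not overlap, and the difference was −0.75 ± 0.13 (1.68-fold lower, adjusted p = 0.00903). At its brightest probe set the transgenic arrays read 6.64, 6.61 and 6.69 and the wild type arrays 7.08, 7.05 and 6.92, which did not overlap either but did not pass (−0.37 ± 0.10, adjusted p = 0.11). Camk2d at 1456844_at read 4.66, 4.52 and 4.46 in transgenic and 5.36, 5.20 and 5.11 in wild type stimulated arrays. It was again lower in every transgenic array, with a difference of −0.68 ± 0.13 (1.6-fold, adjusted p = 0.0152). The call was lost without wild type stimulated replicate 1 or 2 or transgenic stimulated replicate 2 or 3 (adjusted p = 0.0734, 0.0557, 0.0699 and 0.0675). Kcnip3 read 6.78, 6.53 and 6.59 in transgenic and 6.67, 6.56 and 6.58 in wild type stimulated arrays at its brighter probe set, with overlap of all values. At the other probe set the stimulated arrays read 4.91, 4.99 and 5.05 in transgenic and 4.93, 5.05 and 4.91 in wild type cells.

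Whether the genotype difference itself changed with stimulation was tested as an interaction, the day 2 difference minus the day 0 difference. Of the 34 genes 0 were called by limma at their brightest probe set, against 1.98% of all genes, and 3 had an unadjusted p under 0.05, against 15% of all genes. One of the 110 probe sets passed, against 1.58% of all probe sets. That was Camk2d at 1444031_at, where stimulated arrays read 3.51, 3.58 and 3.77 in transgenic and 3.90, 4.31 and 4.13 in wild type cells. The gap between genotypes was narrower after stimulation than before it, by 1.04 ± 0.20 (adjusted p = 0.0222), and the transgenic values lie below every array's median in both states. The call was lost in 6 of the 12 fits with an array left out (adjusted p = 0.0544 to 0.0601): unstimulated transgenic replicate 1 or 2, stimulated transgenic replicate 2 or 3, and stimulated wild type replicate 1 or 3. Slc8a1, with an interaction of −0.45 ± 0.11, did not pass (adjusted p = 0.0801), nor did Orai1 (−0.58 ± 0.22, adjusted p = 0.258) or Crem (0.46 ± 0.14, adjusted p = 0.156).

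More of these genes were called with stimulation than between genotypes. The stimulated arrays have lower medians than the unstimulated ones in the deposited values (5.36 to 5.41 against 5.97 to 6.05). The median change over all probe sets was −0.40 in both genotypes in these values. Stimulation changes (day 2 minus day 0) are therefore given on values quantile-normalized over all 12 arrays. On that scale the median change is 0.040 in transgenic and 0.037 in wild type cells. In transgenic cells 6 genes rose and 15 fell, 21 of 34 against 58.5% of all genes (35.2% higher and 23.3% lower). In wild type cells 8 rose and 15 fell, 23 of 34 against 60% of all genes (36% higher and 24% lower). Over probe sets, 66 of 110 were called in transgenic cells, against 55.2% of all, and 64 in wild type cells, against 56.8%. The median change of the 34 genes was −0.20 in transgenic and −0.076 in wild type cells, against 0.083 and 0.080 over all genes. The split depends on scaling: in the deposited values 2 rose and 26 fell in transgenic cells and 3 and 24 in wild type cells, and with arrays centred on their medians it was 9 and 10 in transgenic and 11 and 10 in wild type cells. Between genotypes 13 genes were called lower in both, 5 higher in both and 0 in opposite directions. Under all 3 scalings and in both genotypes, 9 genes fell (Atp2a3, Camk1d, Itpr2, Itpr3, Nfatc1, Nfatc2, Orai2, Orai3 and Ppp3ca) and 2 rose (Atp2a2 and Ppp3cc). The shares of all genes called in both genotypes, or under all 3 scalings, were not computed, so these joint counts have no background beside them. Day 2 cells had been in culture and day 0 cells had not, so stimulation and culture cannot be told apart. Markers of several cell types also moved between the days. In transgenic cells 11 of 11 granulocyte, 14 of 16 monocyte and macrophage, 9 of 14 T and NK cell, 5 of 7 erythroid and 6 of 7 B cell markers were called lower at day 2, and in wild type cells 6, 9, 8, 4 and 6 of the same lists. The stimulated granulocyte array means were 5.26 to 5.44 in transgenic and 4.88 to 4.93 in wild type cells, and the part of these shifts in the changes below was not tested.

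**Figure D4:**
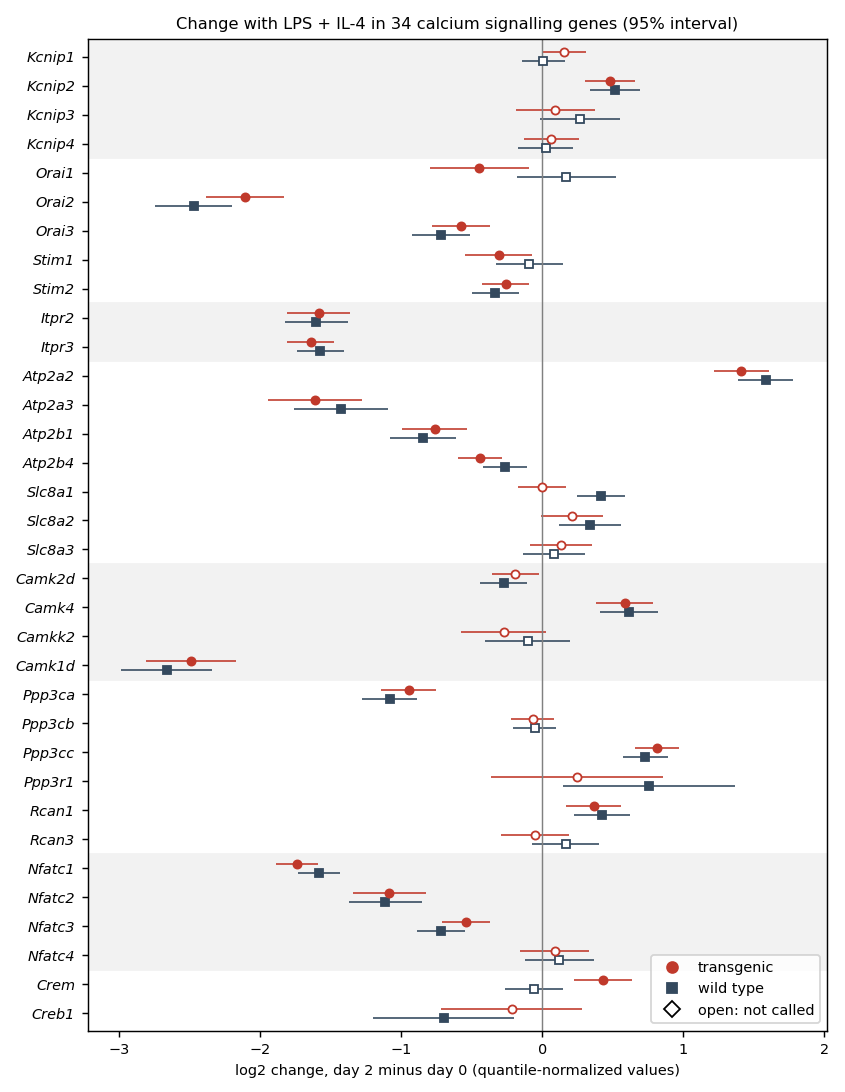
Log2 change from day 0 to day 2 (quantile-normalized values) for the brightest probe set of each of 34 genes in transgenic (circles) and wild type cells (squares), with 95% intervals. Filled symbols have an adjusted p under 0.05; the lowest values are those of Camk1d (−2.49 in transgenic, −2.66 in wild type cells) and the highest those of Atp2a2 (1.41 and 1.58).

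Of the 5 entry genes, 5 were called lower in transgenic and 3 in wild type cells, beside 23.3% and 24% of all genes. With arrays centred on their medians the calls of Orai2 and Orai3 held in both genotypes, and Orai1 (−0.16, adjusted p = 0.365) and Stim1 (−0.14, adjusted p = 0.19) lost their transgenic calls. Orai2 fell to 5.36, 5.24 and 5.11 in transgenic stimulated arrays, against 7.01, 7.53 and 7.49 in transgenic unstimulated ones. In wild type cells it read 5.36, 5.50 and 5.27 stimulated and 7.89, 7.89 and 7.75 unstimulated. The states are far apart in both genotypes, with changes of −2.10 ± 0.13 (adjusted p = 1.63e-08) in transgenic and −2.47 ± 0.13 (5.55-fold lower, adjusted p = 3.16e-09) in wild type cells, and both of its probe sets were called lower in both. Orai3 fell by 0.57 ± 0.095 in transgenic and by 0.72 ± 0.095 in wild type cells. Orai1 was called in transgenic cells (−0.45 ± 0.16, adjusted p = 0.0337) and had a change of 0.17 ± 0.16 in wild type cells (adjusted p = 0.391). The transgenic Orai1 call was lost without transgenic unstimulated replicate 1 or 3 or transgenic stimulated replicate 1 or 2 (adjusted p = 0.0691, 0.119, 0.119 and 0.085). The other Orai1 probe set (1424989_at) did not follow. It had a change of 0.073 in transgenic cells, not called, and was called higher in wild type cells (0.45, adjusted p = 0.000871). The sensor Stim1 was called in transgenic cells (−0.31 ± 0.11, adjusted p = 0.0296) and not in wild type cells (−0.092 ± 0.11), and its call was lost without transgenic unstimulated replicate 1 or 3 or transgenic stimulated replicate 1 or 2 (adjusted p = 0.0508, 0.128, 0.0704 and 0.0839). Whether Orai1 or Stim1 responded differently by genotype is not shown by these calls, and neither passed the interaction. Stim2 had changes of −0.26 ± 0.077 and −0.33 ± 0.077, called in both, but above 0 with arrays centred on their medians (0.14 in transgenic and 0.067 in wild type cells). Its transgenic call was lost without transgenic stimulated replicate 3 (adjusted p = 0.0546).

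Both IP3 receptors with probe sets fell in both genotypes. Itpr3 read 8.72, 8.75 and 8.64 in transgenic stimulated arrays against 10.35, 10.30 and 10.37 in unstimulated ones, and 8.67, 8.71 and 8.79 against 10.26, 10.20 and 10.43 in wild type cells. The states do not overlap, and the changes were −1.64 ± 0.077 (adjusted p = 1.51e-09) in transgenic and −1.57 ± 0.077 (adjusted p = 1.91e-09) in wild type cells. Itpr2 read 6.92, 6.89 and 6.98 in transgenic stimulated arrays against 8.48, 8.54 and 8.52 in unstimulated ones, and 7.33, 7.29 and 7.15 against 9.10, 8.62 and 8.85 in wild type cells. It fell by 1.58 ± 0.10 in transgenic and by 1.6 ± 0.10 in wild type cells, with no overlap of states.

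The 2 SERCA pumps moved in opposite directions. Atp2a2 rose to 11.60, 11.60 and 11.38 in transgenic stimulated arrays, against 10.17, 10.04 and 10.14 in unstimulated ones, and to 11.69, 11.59 and 11.59 in wild type cells, against 10.12, 10.11 and 9.88. All stimulated arrays lie above all unstimulated ones, by 1.41 ± 0.090 (2.66-fold, adjusted p = 2.74e-08) in transgenic and 1.58 ± 0.090 (3.0-fold, adjusted p = 8.07e-09) in wild type cells. Its 5 other probe sets did not all follow: 2 of them rose and 2 fell in transgenic cells, and in wild type cells their smallest adjusted p was 0.0925. Atp2a3 read 9.06, 9.09 and 9.23 in transgenic stimulated arrays against 10.65, 10.91 and 10.66 in unstimulated ones, and 8.92, 9.06 and 9.01 against 10.05, 10.40 and 10.84 in wild type cells. It fell by 1.61 ± 0.15 (adjusted p = 1.26e-06) in transgenic and by 1.43 ± 0.15 (adjusted p = 3.65e-06) in wild type cells, and both of its probe sets were called lower in both genotypes. The plasma membrane pump Atp2b1 read 8.22, 8.28 and 8.39 in transgenic stimulated arrays against 9.09, 8.98 and 9.10 in unstimulated ones, and 8.14, 8.41 and 8.41 against 9.25, 9.31 and 8.94 in wild type cells. Its changes were −0.76 ± 0.11 and −0.84 ± 0.11, both called, and in transgenic cells the call was lost with arrays centred on their medians (−0.24, adjusted p = 0.085). Slc8a1 had a change of −0.0021 ± 0.077 in transgenic cells (adjusted p = 0.984) and of 0.42 ± 0.077 in wild type cells (adjusted p = 0.000462). The Slc8a1 interaction on the deposited values is given above. The wild type change is −0.12 in the deposited values, and it rests on the same wild type unstimulated arrays as the genotype difference. Of the 4 Slc8a1 probe sets, 2 were called higher in wild type cells. In transgenic cells 1 was called higher (1425817_a_at, by 0.37, adjusted p = 0.00138). Atp2b4 was called lower in both genotypes (−0.44 ± 0.072 and −0.26 ± 0.072), the wild type call ending with arrays centred on their medians (−0.040, adjusted p = 0.648). Slc8a2 was called higher in wild type cells (0.34 ± 0.10, adjusted p = 0.0122) and not in transgenic cells (0.21 ± 0.10), but was −0.27 in wild type cells in the deposited values and lost its call without wild type unstimulated replicate 2 (adjusted p = 0.0527). Slc8a3 was not called at its brightest probe set. Its other one (1450311_at) was called higher in the quantile-normalized values, by 0.69 in transgenic and by 0.40 in wild type cells.

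**Figure D5:**
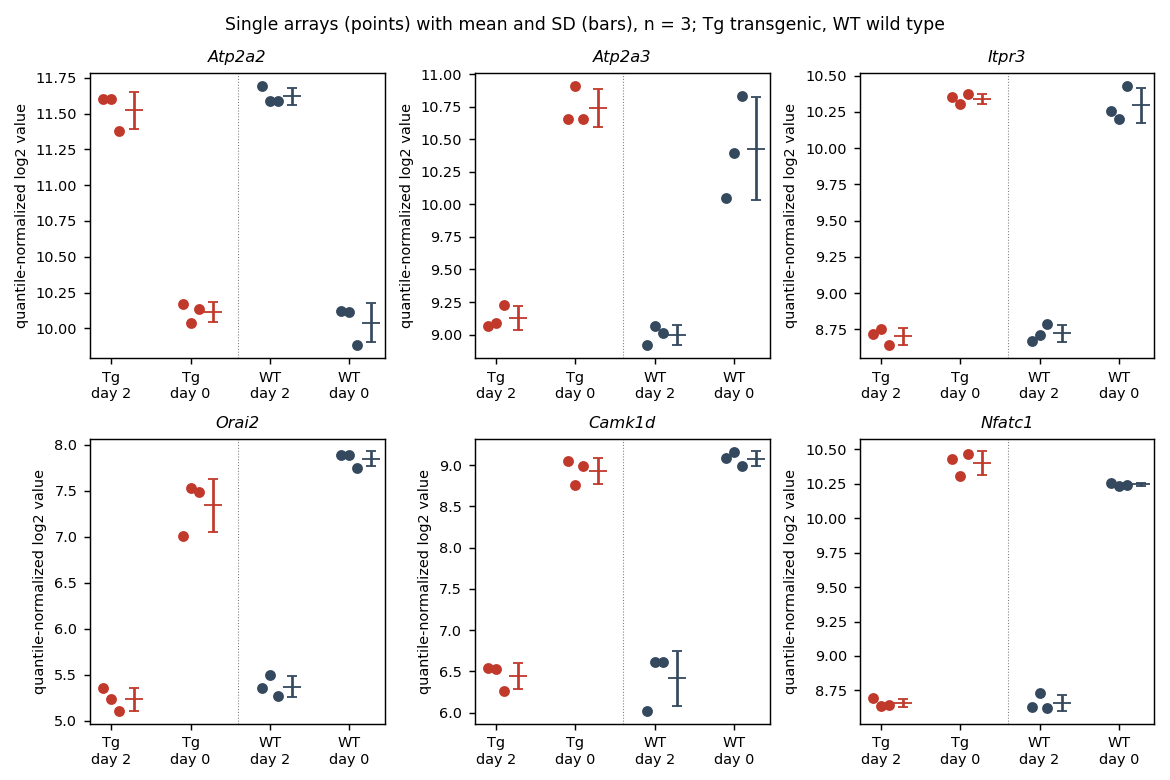
Quantile-normalized log2 values of single arrays (points) with mean and SD (bars, n = 3 per group) for 6 genes with large stimulation changes, in transgenic (Tg) and wild type (WT) cells at day 2 and day 0. Atp2a2 lies higher at day 2 in both genotypes and the other 5 genes lie lower, with no overlap between the days; each panel has its own scale, which does not start at 0.

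Camk1d, a calmodulin-dependent kinase, had the largest change of the list. It read 6.54, 6.53 and 6.26 in transgenic stimulated arrays against 9.05, 8.75 and 8.99 in unstimulated ones, and 6.02, 6.61 and 6.61 against 9.08, 9.16 and 8.99 in wild type cells. It fell by 2.49 ± 0.15 (5.61-fold, adjusted p = 1.35e-08) in transgenic and by 2.66 ± 0.15 (6.33-fold, adjusted p = 6.3e-09) in wild type cells. Camk4, a nuclear kinase that phosphorylates CREB, had changes of 0.58 ± 0.094 and 0.61 ± 0.094, called in both, but of −0.037 and 0.023 in the deposited values. Camk2d at its brightest probe set had a change of −0.19 ± 0.077 in transgenic cells (adjusted p = 0.0514) and of −0.27 ± 0.077 in wild type cells (adjusted p = 0.0088), and the wild type change was 0.13 with arrays centred on their medians. Its probe sets differed widely. Of the 7, 3 were called lower and 1 higher in transgenic cells, with changes of −1.92 to 0.89. In wild type cells 5 were called lower and 1 higher, with changes of −2.20 to 0.55. Camkk2 was not called at its brightest probe set, while 2 of its 4 probe sets were called higher in wild type cells and 0 in transgenic cells. Of calcineurin's subunits, Ppp3ca read 8.89, 8.83 and 8.68 in transgenic stimulated arrays against 9.81, 9.78 and 9.65 in unstimulated ones, and 8.90, 8.77 and 8.80 against 9.79, 10.06 and 9.86 in wild type cells. The states do not overlap, and Ppp3ca fell by 0.95 ± 0.090 in transgenic and by 1.08 ± 0.090 in wild type cells. Ppp3cc, another catalytic subunit, rose by 0.81 ± 0.072 and 0.73 ± 0.072 at its brightest probe set, and its other probe set was called lower in wild type cells. The inhibitor Rcan1, itself a target of NFAT, had changes of 0.36 ± 0.091 in transgenic and 0.42 ± 0.091 in wild type cells, both called, but of −0.24 and −0.15 in the deposited values. The regulatory subunit Ppp3r1 was called higher in wild type cells (0.76 ± 0.28, adjusted p = 0.0349), where replicate 1 of the unstimulated arrays read 8.14 and the other two 9.48 and 9.49. Without that array the change was 0.31 (adjusted p = 0.0712), and the call was also lost without wild type stimulated replicate 2 or 3 (adjusted p = 0.0714 and 0.114). At this probe set the transgenic change was 0.25 and was not called. The other Ppp3r1 probe set (1421786_at) was called higher in both genotypes. It rose by 1.44 in transgenic (adjusted p = 4.45e-08) and by 1.23 in wild type cells (adjusted p = 1.88e-07).

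Of the 4 NFAT factors, 3 were called lower in both genotypes, 2 of them (Nfatc1 and Nfatc2) under all 3 scalings. Of all genes, 23.3% were called lower in transgenic and 24% in wild type cells. Nfatc1 read 8.70, 8.64 and 8.65 in transgenic stimulated arrays against 10.43, 10.30 and 10.46 in unstimulated ones, and 8.63, 8.73 and 8.62 against 10.26, 10.23 and 10.24 in wild type cells. The states do not overlap, and the changes were −1.74 ± 0.069 (3.34-fold lower, adjusted p = 3.61e-10) and −1.58 ± 0.069 (2.99-fold lower, adjusted p = 6.83e-10). All 5 of its probe sets were called lower in transgenic and 4 of 5 in wild type cells. Nfatc2 read 7.10, 6.96 and 6.71 in transgenic stimulated arrays against 8.10, 7.93 and 8.0 in unstimulated ones, and 7.06, 6.89 and 7.03 against 8.36, 7.93 and 8.03 in wild type cells. It fell by 1.08 ± 0.12 in transgenic and by 1.11 ± 0.12 in wild type cells at this, its brightest probe set. Of the 6 Nfatc2 probe sets, 3 were called lower in each genotype, and 1 was called higher in wild type cells (0.36). Nfatc3 had changes of −0.54 ± 0.079 and −0.72 ± 0.079, called in both, but of 0.17 (adjusted p = 0.099) in transgenic and −0.027 (adjusted p = 0.798) in wild type cells with arrays centred on their medians. Nfatc4 was not called in either genotype at its brightest probe set. Of its 4 probe sets, 2 were called higher in transgenic and 1 in wild type cells. At the brightest probe set, Kcnip2 was the 1 gene of the KChIP family called, at 0.48 ± 0.082 in transgenic and 0.52 ± 0.082 in wild type cells, and these values were −0.15 and −0.080 in the deposited values. Another Kcnip2 probe set (1421783_a_at) was called lower in transgenic cells (−0.33 ± 0.090, adjusted p = 0.00737). Of the 3 Kcnip4 probe sets 2 were called higher in both genotypes (0.19 and 0.26 in transgenic, 0.29 and 0.31 in wild type cells), and of the 4 Kcnip1 probe sets 1 was called lower in wild type cells (−0.26 ± 0.093, adjusted p = 0.029). Kcnip3 had changes of 0.093 ± 0.13 (adjusted p = 0.573) and 0.27 ± 0.13 (adjusted p = 0.0969). Crem was called higher at its brightest probe set in transgenic cells (0.43 ± 0.094, adjusted p = 0.00169) and not in wild type cells (−0.060 ± 0.094). That transgenic call was lost in the deposited values (0.053, adjusted p = 0.629). Over the 4 Crem probe sets, 3 were called higher in transgenic and 1 in wild type cells. Of the 6 Creb1 probe sets, 1 was called higher in transgenic and 1 in wild type cells, and 2 were called lower in wild type cells only. The higher one was 1423402_at in both genotypes, with changes of 1.103 in transgenic and 0.891 in wild type cells. Its stimulated arrays lay above its unstimulated ones in the deposited values too. At the brightest probe set Creb1 was called in wild type cells (−0.70 ± 0.23, adjusted p = 0.0203) and not in transgenic cells (−0.22 ± 0.23). The wild type change there was −0.047 (adjusted p = 0.879) with arrays centred on their medians. The Creb1 call was lost without wild type stimulated replicate 1, the stimulated array with the lowest 5′ actin signal relative to 3′, which read 8.46 against 9.32 and 9.70 in the other two (−0.35, adjusted p = 0.0551), and without wild type unstimulated replicate 2 (adjusted p = 0.0602).

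Further genes of the pathway were taken from a list of 80, of which 73 had a probe set. In unstimulated cells 3 were higher and 6 lower in transgenic cells, 9 of 73 beside 10.4% of all genes called (5.45% higher and 4.9% lower). Those with the largest differences were Gsk3b, a kinase that returns NFAT to the cytoplasm (−0.74 ± 0.12, adjusted p = 0.00165), Hpcal1, a neuronal calcium sensor relative of DREAM (0.58 ± 0.092, adjusted p = 0.00166), Ryr1, a calcium release channel (−0.56 ± 0.088, adjusted p = 0.00179), and Nfat5, an NFAT relative that calcineurin does not control (−0.55 ± 0.13, adjusted p = 0.0165). The anchoring protein Akap5 and the CREB coactivator Crebbp each had a difference of −0.40, with adjusted p = 0.0175 and 0.00972. After stimulation 3 of the 73 were called, beside 2.34% of all genes. One was higher, the CREB family factor Creb3l2 (0.59 ± 0.12, adjusted p = 0.0292), and 2 were lower, Itpkb (−0.40 ± 0.087, adjusted p = 0.0344), which phosphorylates inositol trisphosphate, and the lipid phosphatase Inpp5d (−0.32 ± 0.067, adjusted p = 0.0275). Gsk3b was the 1 gene of the 73 with an interaction (0.78 ± 0.16, adjusted p = 0.0327), beside 1.98% of all genes. With stimulation 17 rose and 27 fell in transgenic cells, beside 35.2% of all genes called higher and 23.3% lower, and 15 rose and 28 fell in wild type cells, beside 36% and 24%. The largest falls in wild type cells were in Nfat5 (−1.89 ± 0.12), the store-operated entry inhibitor Saraf (−1.59 ± 0.23) and the ATP-gated channel P2rx4 (−1.51 ± 0.066). The largest rises were in Calr, the store's calcium-binding protein calreticulin (0.73 ± 0.069), and the CaMKII subunits Camk2b (0.65 ± 0.099) and Camk2a (0.61 ± 0.085). These stimulation counts and changes are on quantile-normalized values only, and other scalings were not examined for the 73 genes. Among the members, the rises of Camk4, Kcnip2 and Rcan1 did not hold in the deposited values, while those of Atp2a2 and Ppp3cc did.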

How the data were processed

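Single-channel Affymetrix mouse genome arrays were summarised by the authors to log2 values per probe set, and the submitters' processing notes name RMA and affy without a version. The sources used here do not say whether all arrays were normalized in 1 run; the medians differ by state, which can shift every stimulation change. Of 45101 probe sets 64 controls were left out. GEO's platform annotation gave 34945 probe sets 1 symbol, 932 several and 9160 none, and 34741 of the first matched RefSeq by Entrez identifier. For counts over genes the brightest probe set (mean of 12 arrays) stood for each of 18193 genes.

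Limma 3.58.1 in R 4.3.3 was fitted to all 12 arrays with 1 coefficient per group and no block (8 residual and 4.71 prior degrees of freedom), with 2-sided tests adjusted over 45037 probe sets. The 5 comparisons were the genotypes in each state, the states in each genotype, and the interaction. Genotype and interaction were tested on the deposited log2 values. Stimulation was tested on values quantile-normalized over the 12 arrays, and the fit was checked on simulated data. Precision is limited by the number of arrays.

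The members, the further pathway genes and the marker lists were chosen with earlier results of these data known, and the same holds for the tests. Arrays are given singly for Kcnip3, for members with a probe set called between genotypes or in the interaction, and for the 10 called genes with the largest stimulation change in wild type cells; other members are given by value or range. Of the further genes, at most 6 called per genotype comparison and the 3 largest rises and falls with stimulation in wild type cells are named. Comparisons share arrays, so their values are not independent.

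Replicate numbers were checked by correlating deviations from the group means of same-numbered arrays. They correlated at 0.33, 0.10 and 0.18 between the stimulated genotypes and at 0.32, 0.18 and 0.19 between the states of wild type cells. The numbers met the rule used there (every r above 0.1), though differently numbered wild type arrays reached 0.098. The highest r, 0.33 and 0.32, were between replicates 1, which had the lowest 5′ actin signal relative to 3′ of their groups. The part of RNA quality was not tested. The numbers did not meet the rule between the unstimulated genotypes (0.078, 0.070 and 0.30) or between the states of transgenic cells (0.069, −0.16 and 0.12). The rule rests on the data alone and cannot show that samples were paired, since the labels name only independent replicates. Alternatives were each array left out, a replicate block, only the compared groups, a filter on dim probe sets, a trended robust spread, other scalings, the most variable probe set, and a fold rule.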

Additional observations from a re-analysis of the deposited data

Results flagged for a closer look

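The genotype difference at the dimmest Camk2d probe set (1444031_at) differed between the states by the interaction test, with a value of 1.04 ± 0.20 on the log2 scale (limma, adjusted p = 0.0222): it was −0.49 after stimulation and −1.54 before it. The transgenic arrays lay below the wild type arrays in both states, in 3 of 3 arrays each. Over the arrays left out in turn the interaction ran from 0.91 to 1.18, and 6 of 12 such fits lost the call. On quantile-normalized values it was 0.81 with adjusted p = 0.08.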

How the results depend on the processing

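For unstimulated genotypes, the count of called genes (2) was 4 with a replicate block, 1 with only the compared groups and 0 with a 1.5-fold rule, and ran from 1 to 9 over the arrays left out (9 without wild type unstimulated replicate 3, 1 without wild type replicate 1 or transgenic replicate 1 or 3). The 10 probe sets became 15 with the block, 4 with only the compared groups and 3 with 1.5-fold, and ran from 4 to 22 (22 without wild type unstimulated replicate 3, 4 without transgenic replicate 1 or 3). For stimulated genotypes, only the compared groups gave 1 gene and 4 probe sets, and the arrays left out gave 0 to 1 genes and 1 to 3 probe sets. For the interaction the arrays left out gave 0 to 1 genes and 0 to 3 probe sets, and a trended robust spread 2 probe sets. With 1.5-fold, stimulation gave 11 genes and 37 probe sets in transgenic and 37 probe sets in wild type cells. Over all probe sets, unstimulated genotype calls (4256) ran from 2174 to 7518 over the arrays left out, with 1908 from the compared groups and 1700 at 1.5-fold; stimulated genotype calls (839) from 452 to 597, with 483 at 1.5-fold; and interaction calls (710) from 388 to 1418. Stimulation calls were 24840 in transgenic and 25561 in wild type cells, with 15519 and 15818 above the dim filter and 13126 and 13644 at 1.5-fold. Where the replicate numbers met the pairing rule, the replicate block gave 0 genes and 3 probe sets between stimulated genotypes and 23 genes and 66 probe sets for wild type stimulation. The block changed no call of a member gene there.

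Directions that turned with scaling were as follows. With arrays centred on their medians, transgenic changes were 0.17 for Nfatc3 and 0.14 for Stim2, and wild type changes 0.13 for Camk2d and 0.067 for Stim2. In the deposited values, transgenic changes were −0.24 for Rcan1, −0.15 for Kcnip2 and −0.037 for Camk4, and wild type changes −0.15 for Rcan1, −0.27 for Slc8a2, −0.080 for Kcnip2 and −0.12 for Slc8a1. A fit with an array left out has fewer samples; beyond that the cause of these changes was not tested. RMA values carry no detection call, so the dim Slc8a1, Kcnip2 and Camk2d probe sets are limited by unknown background.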
